A study of Rattus norvegicus with 12 samples.

Results

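Aminoacyl-tRNA synthetases and genes of the amino acid response were followed in RNA-seq libraries of skeletal muscle from aged male rats. The 52 genes were all rows of the raw count table whose symbol has the form of a tRNA synthetase (1 amino acid letter followed by ars or ars2), the synthetase genes Farsa, Farsb and Eprs, and 15 named response genes, out of 24648 rows in all. They comprised 20 cytosolic synthetases, 17 mitochondrial synthetases and 15 response genes, each on 1 row. Of these, 51 passed the filter on low counts. Mars2, the mitochondrial methionyl-tRNA synthetase, did not pass, with 46 counts over the 12 libraries, and enters no test below.

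A tRNA synthetase joins an amino acid to its transfer RNA, and so supplies the ribosome. The cytosolic enzymes and the mitochondrial ones are mostly encoded by separate nuclear genes, the latter marked by a 2 in the symbol, while Kars and Gars make both forms and are counted here as cytosolic. When an amino acid runs short, uncharged tRNA activates the kinase GCN2, translation of the transcription factor ATF4 rises, and ATF4 induces many cytosolic synthetases together with enzymes of asparagine, serine and one-carbon synthesis. A parallel route acts on the growth kinase mTORC1, which the GATOR1 complex (Depdc5, Nprl2 and Nprl3) holds back when amino acids are scarce.

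The rats were 540 days old and of 2 diet groups: control offspring, and offspring of dams given a diet with 6% protein through gestation and lactation, called restriction here. The control dams' protein percentage is not used here. The study took soleus, a slow muscle, and extensor digitorum longus, a fast one, but the sample labels do not say which library is which. The library numbers in the titles run from 3 to 15 and again 20 higher, and these blocks are called set 1 and set 2. Set 1 held controls 3, 8 and 9 and restriction libraries 12, 13 and 15, and set 2 held controls 23, 28 and 29 and restriction libraries 32, 33 and 35, so each group had n = 3. No label ties a library to an animal or a litter, so each p-value below reflects the scatter among 3 libraries a group, and that scatter may be technical.

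Library totals ran from 22829692 to 38313704 counts. Summed slow-fibre genes (7 of 7 called lower in set 2) were at 89939 to 103857 CPM (counts scaled to a fixed library total) in set 1 and 1643 to 5358 in set 2, and the 8 fast-fibre genes (8 of 8 called higher) at 3728 to 10538 and 129967 to 156308. Other cell types also differed between the sets: all 8 macrophage genes were called lower in set 2 (summed CPM 190 to 472 against 52.2 to 103), as were 5 of 6 fibro-adipogenic progenitor genes (456 to 815 against 257 to 367) and 4 of 5 adipocyte genes (191 to 274 against 126 to 259). Of the endothelial genes 3 of 4 were called higher (101 to 144 against 152 to 208), as were 2 of 4 Schwann cell genes (15.9 to 54.8 against 39.4 to 91.2). None of the 3 red blood cell genes (Hba1, Hbb and Alas2) was called. No gene of these lists was at 0 in all 12 libraries. Control 23 stood apart from all other libraries on the second principal component (88 against -23.7 to 19.6). It had the highest red blood cell gene sum (1958 CPM, against 297 to 745 in the rest of set 2). In bulk muscle, fewer cells of a type and less RNA per cell cannot be told apart.

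The ATF4 response element is a sequence feature for which many of these genes are known, so their promoters are described first. RefSeq promoters (build GRCr8, 250 bases before to 50 after the start, 300 bases in all) were read for the members, whose names matched RefSeq's by symbol for 34, by synonym for 17 and not at all for Gars, and 47 had an entry. Dars, Gars, Rars and Eif4ebp1 were among the 5 without one. The core searched was TGATGNAA, or TTNCATCA on the other strand, as in the C/EBP-ATF response element. It was present in 7 of 17 cytosolic synthetase promoters (41.2%), in 0 of 16 mitochondrial synthetase promoters and in 2 of 14 response gene promoters (14.3%), beside 1332 of all 33469 promoters of this length (3.98%). A match is a description of letters, not a bound site. Matches are shown with the letters around them for 8 of the 9 genes, since the cytosolic synthetases that carry them are compared below with those that do not. Each window is 30 bases of the gene's own strand, with the match in capitals and, in brackets, the position of its first base, counted from 1 at the start site and negative before it.
Aars, chr19:55908480-55908509, + strand (10): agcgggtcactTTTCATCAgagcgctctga
Cars, chr1:208225334-208225363, - strand (18): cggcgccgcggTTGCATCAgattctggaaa
Iars, chr17:15193658-15193687, - strand (-24): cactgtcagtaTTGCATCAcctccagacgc
Mars, chr7:65023752-65023781, - strand (-17): gcccgttccggTTGCATCAgcgtgggctcc
Tars, chr2:62114811-62114840, - strand (-27): ctggcgtcccgTTGCATCAgctggttagct
Yars, chr5:146820183-146820212, + strand (39): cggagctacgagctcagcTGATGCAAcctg
Chac1, chr3:126795953-126795982, + strand (-167): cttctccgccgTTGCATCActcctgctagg
Trib3, chr3:161275536-161275565, - strand (-21): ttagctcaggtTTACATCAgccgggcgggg
The cytosolic gene not shown was Nars. Aars had a further match that is not shown, TTGCATCA at -112. Of the 10 matches in the 9 promoters, 6 read TTGCATCA and 2 its complement TGATGCAA, and the match shown for Aars and that of Trib3 differed from these.

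The first comparison asked how these genes differed between the muscle sets, as the mean over both diets. Set 2, the set with fast-fibre genes, had higher counts of the stress-response gene Chac1, of Atf4 and of the synthetases Tars and Aars2, and lower counts of the lysyl-tRNA synthetase gene Kars, of Farsb, of Rars2 and of the serine and one-carbon enzyme genes Phgdh and Mthfd2. By edgeR's quasi-likelihood test with Benjamini-Hochberg adjustment over all genes, 18 of 51 members (35.3%) were called at an adjusted p under 0.05, 8 higher and 10 lower in set 2. The background was 39.5% of all 14225 genes tested, 19.9% higher and 19.6% lower, so the members were called at about the rate of any gene. With libraries scaled by their totals alone, 17 members were called, 4 higher and 13 lower, of which 14 were among the 18, and the median of all genes moved from -0.01 to -0.11. The groups did not overlap, all 6 libraries of one set lying beyond all 6 of the other, for 5 members higher and 6 lower, beside 8.97% and 9.77% of all genes.

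**Figure D1:**
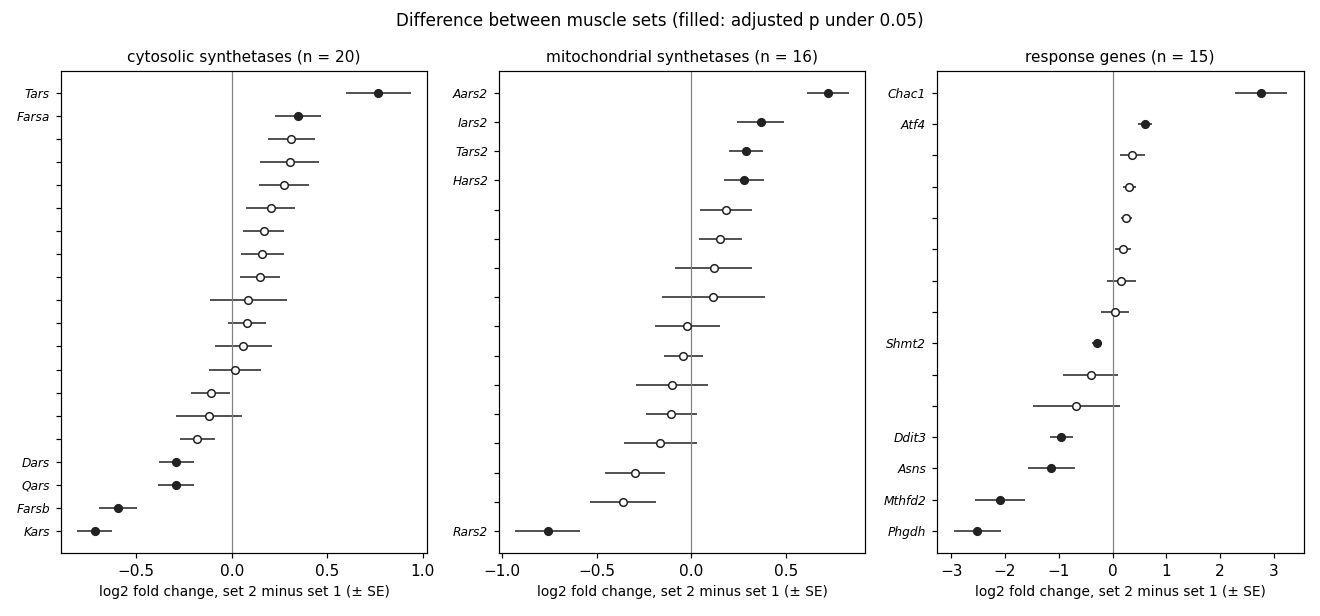
Log2 fold change of each tested member, set 2 minus set 1, with its standard error, for the 20 cytosolic synthetases, 16 mitochondrial synthetases and 15 response genes (axes differ between panels). Filled, named points have an adjusted p under 0.05: 6, 5 and 7 of them, on both sides of 0 in each panel.

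Among the cytosolic synthetases, 4 of 20 fell and 2 rose from set 1 to set 2, and 14 did not pass. Their median log2 fold change was 0.08, with a range of -0.72 to 0.77, 13 above 0 and 7 below. It was -0.01 when libraries were scaled by their totals alone, so its sign depended on the scaling. Kars, which charges lysine, was at 306, 314 and 328 CPM in controls of set 1, 316, 296 and 295 in the set 1 restriction libraries, 227, 192 and 192 in controls of set 2 and 169, 175 and 176 in the set 2 restriction libraries (CPM here are scaled by edgeR's TMM method, and values are in the order of library numbers above). Every library of set 2 lay below every library of set 1. The difference was -0.72 ± 0.09 (log2, SE), a 1.64-fold lower level, with an edgeR adjusted p of 2.86e-05. Dars, for aspartate, had 52.2, 53.4 and 61.6 and 54.9, 53.0 and 56.0 CPM in the control and restriction libraries of set 1, and 50.1, 44.8 and 45.8 and 40.6, 43.6 and 45.9 in those of set 2. The sets did not overlap, and the log2 difference was -0.29 ± 0.09 (edgeR adjusted p = 0.020). For Qars, the glutamine enzyme, the values were 180.2, 161 and 164 CPM in controls and 206, 204 and 190.4 in restriction libraries of set 1, then 185, 149 and 155 and 131, 143 and 140.3 in set 2. Control 23 lay within the range of set 1 and the other 5 set 2 libraries below it, and the log2 difference was -0.29 ± 0.09 (edgeR adjusted p = 0.024).

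Phenylalanyl-tRNA synthetase is built from an alpha and a beta subunit, and their genes moved in opposite directions. Farsb, the beta subunit, was at 53.9, 57.9 and 58.3 CPM in controls and 51.1, 57.6 and 50.7 in restriction libraries of set 1, and at 42.3, 32.8 and 34.8 and 34.8, 35.5 and 37.6 in set 2. All 6 set 2 libraries were the lower ones, with a log2 difference of -0.60 ± 0.10 (edgeR adjusted p = 0.00025). Farsa, the alpha subunit, was at 30.7, 28.3 and 27.9 CPM in controls of set 1, 28.8, 30.7 and 30.4 in set 1 restriction libraries, 29.7, 43.9 and 39.0 in controls of set 2 and 44.3, 31.4 and 36.1 in set 2 restriction libraries. It was higher in set 2 by 0.34 ± 0.12 (edgeR adjusted p = 0.034), with control 23 inside the range of set 1, and by 0.24 (edgeR adjusted p = 0.21) when libraries were scaled by their totals alone. The difference between the 2 subunits was not itself tested. Tars, for threonine, had 21.3, 17.9 and 24.6 CPM in controls and 23.4, 20.5 and 19.1 in restriction libraries of set 1, against 26.1, 40.3 and 40.2 and 51.3, 27.7 and 30.2 in set 2. Its sets did not overlap, and the rise of 0.77 ± 0.17 (edgeR adjusted p = 0.0025) was the largest among the cytosolic genes, with restriction 32 highest and a rise of 0.62 without it.

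A group of cytosolic synthetases is held in a large multi-synthetase complex, and its 8 genes here, a grouping chosen after their values were seen, did not move as one. Kars, Dars and Qars were the called ones, all lower in set 2. The other 5 had log2 differences above 0 that did not pass in edgeR: 0.31 for Mars (adjusted p = 0.058), 0.30 for Eprs (0.13), 0.27 for Lars (0.11), 0.21 for Iars (0.22) and 0.17 for Rars (0.23). Without control 23, Mars passed at 0.39 (edgeR adjusted p = 0.0066) and Eprs at 0.39 (0.026). Without restriction 32, the Iars difference was 0.12.

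**Figure D2:**
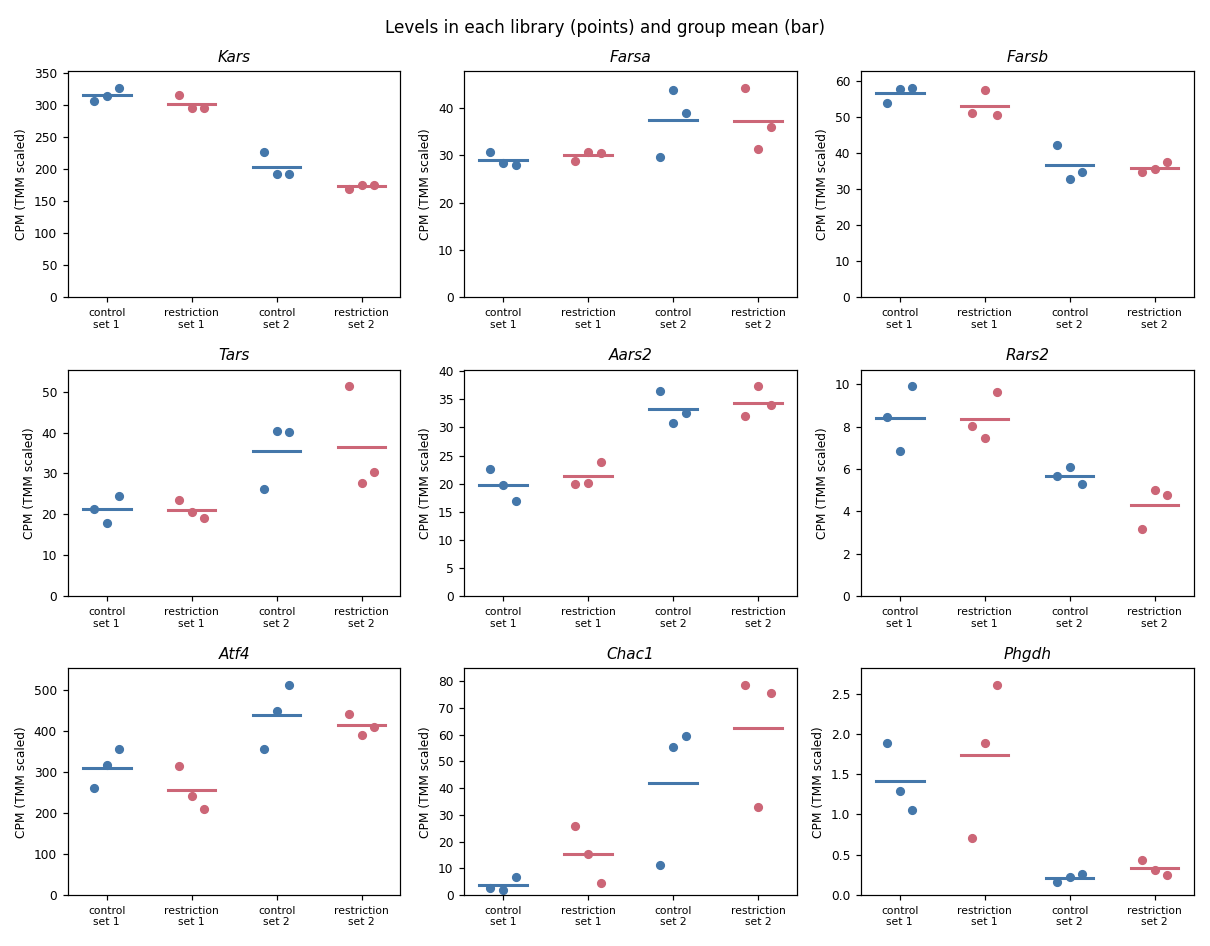
TMM-scaled CPM of 9 members in each of the 12 libraries (points, blue for control and red for restriction) with the group mean (bar), all axes from 0. Kars, Farsb, Rars2 and Phgdh lie lower in set 2, and Tars, Aars2, Atf4 and most Chac1 values lie higher.

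Mitochondrial synthetases charge the tRNAs that translate the proteins made inside the organelle. Of the 16 tested, 4 rose, 1 fell and 11 did not pass, with a median log2 fold change of 0.05 and 8 members on each side of 0. The median was -0.08 when libraries were scaled by their totals alone and -0.06 without control 23. Aars2, for alanine, was at 22.6, 19.8 and 17.0 CPM in controls of set 1 and 19.96, 20.2 and 23.8 in set 1 restriction libraries, against 36.5, 30.8 and 32.5 and 32.0, 37.3 and 33.9 in set 2. The sets were far apart, with a rise of 0.72 ± 0.11 (1.65-fold, edgeR adjusted p = 0.00014). Rars2, for arginine, went the other way, from 8.43, 6.83 and 9.89 CPM in controls and 8.01, 7.45 and 9.64 in restriction libraries of set 1 to 5.69, 6.09 and 5.30 and 3.15, 5.004 and 4.77 in set 2. All 6 set 2 libraries were lower, with a log2 difference of -0.76 ± 0.17 (edgeR adjusted p = 0.0028), and its span overlaps Orc3 and Slc35a1 in RefSeq's GRCr8 annotation, so unstranded reads there are uncertain.

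The other 3 called mitochondrial genes differed by less. Iars2, for isoleucine, was at 62.0, 46.0 and 50.6 CPM in controls and 46.8, 46.7 and 44.6 in restriction libraries of set 1, against 42.9, 68.8 and 65.0 and 67.6, 70.9 and 67.2 in set 2. Control 23 was the lowest of all 12 libraries and the other 5 of set 2 the highest, with a difference of 0.37 ± 0.12 (edgeR adjusted p = 0.030). Tars2, for threonine as its cytosolic counterpart, had 45.3, 45.7 and 50.5 CPM and 49.2, 44.8 and 44.4 in the control and restriction libraries of set 1 and 61.3, 51.4 and 56.0 and 59.2, 57.8 and 56.1 in set 2. Those sets did not overlap, and the difference was 0.29 ± 0.09 (edgeR adjusted p = 0.021). Hars2, the histidine enzyme, had 18.3, 22.2 and 19.6 CPM in controls of set 1, 21.7, 21.8 and 20.7 in set 1 restriction libraries, 25.9, 22.2 and 29.0 in controls of set 2 and 24.3, 24.5 and 24.8 in set 2 restriction libraries. The sets came close to touching, at 0.28 ± 0.10 (edgeR adjusted p = 0.048). With libraries scaled by their totals alone, Iars2, Tars2 and Hars2 did not pass (0.27, 0.18 and 0.17). Threonine was the 1 amino acid for which both a cytosolic and a mitochondrial gene were called, and Tars and Tars2 were both higher in set 2.

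Response genes gave both the largest rise and the largest fall among the members. Their replicates also varied most, with a median within-group standard deviation of 0.51 on the log2 scale, against 0.19 for the cytosolic and 0.24 for the mitochondrial synthetases. Psat1, Trib3, Phgdh, Asns and Mthfd2, with 200 to 712 counts over the 12 libraries, had 0.55 to 1.46. Chac1 (10730 counts) had 1.11 and Eif4ebp1 (50613) 0.51, while Atf4, Nprl3 and Shmt2 had 0.23, 0.12 and 0.12. The part of low counts in this spread was not tested. Of 15, 2 rose, 5 fell and 8 did not pass, with a median log2 fold change of 0.05, which was -0.07 when libraries were scaled by their totals alone and -0.17 without control 23. Atf4, the transcription factor at the head of the response, had 261, 317 and 357 CPM in controls and 316, 241 and 211 in restriction libraries of set 1, and 357, 449.7 and 513 and 443, 391 and 409.8 in set 2. The highest of set 1 and the lowest of set 2 met at 357, and the difference was 0.60 ± 0.13 (edgeR adjusted p = 0.0026). Chac1, an ATF4 target that breaks down glutathione, had 2.59, 1.74 and 6.75 CPM in controls of set 1, 25.9, 15.5 and 4.60 in set 1 restriction libraries, 11.1, 55.3 and 59.3 in controls of set 2 and 78.4, 32.8 and 75.7 in set 2 restriction libraries. Set 2 was higher by 2.76 ± 0.48 (6.75-fold, edgeR adjusted p = 0.00045), with control 23 among the set 1 values.

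Ddit3, which encodes the stress transcription factor CHOP, moved against Atf4 and Chac1. Its CPM was 33.8, 39.8 and 34.3 in controls and 30.7, 31.1 and 26.2 in restriction libraries of set 1, and 31.9, 11.2 and 17.7 and 10.03, 19.5 and 12.4 in set 2. All set 2 libraries but control 23 were below set 1, and the difference was -0.95 ± 0.22 (edgeR adjusted p = 0.0035). Ddit3 and Mars overlap in the annotation, so their reads cannot be told apart where they share bases.

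Of the 6 genes for enzymes of serine, one-carbon and asparagine synthesis, 4 were called lower in set 2, beside 19.6% of all genes. With so few genes, this count is a description. Phgdh, the first enzyme of serine synthesis, had 1.88, 1.29 and 1.06 CPM in controls of set 1, 0.71, 1.88 and 2.60 in set 1 restriction libraries, 0.16, 0.22 and 0.27 in controls of set 2 and 0.44, 0.31 and 0.25 in set 2 restriction libraries. These are 18 to 64 counts in a set 1 library and 3 to 13 in a set 2 library, the sets did not overlap, and the difference was -2.51 ± 0.44 (edgeR adjusted p = 0.00048). Mthfd2, of the mitochondrial folate pathway, had 2.02, 4.28 and 6.38 CPM in controls and 3.49, 1.23 and 2.16 in restriction libraries of set 1, then 0.75, 0.30 and 1.43 and 1.17, 0.38 and 0.35 in set 2. Only control 29 of set 2 reached into the range of set 1, and the difference was -2.10 ± 0.47 (edgeR adjusted p = 0.0028). Asns, asparagine synthetase, was at 2.39, 0.96 and 1.32 CPM and 1.31, 2.53 and 1.06 in the control and restriction libraries of set 1 and 0.43, 1.15 and 0.37 and 1.04, 0.48 and 0.88 in set 2. The sets overlapped, and the difference of -1.14 ± 0.43 was at the edge of the threshold (edgeR adjusted p = 0.0499). Shmt2, the mitochondrial serine hydroxymethyltransferase, was lower, with a difference of -0.29 ± 0.10 (edgeR adjusted p = 0.027), with no overlap between sets, and its span overlaps Ndufa4l2 in the annotation. Psph and Psat1, which complete serine synthesis, had log2 differences of 0.05 ± 0.25 and -0.67 ± 0.81 that did not pass. The macrophage and progenitor gene sums given above were lower in set 2 like these enzymes, and their part in these differences was not tested.

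The remaining members of this class did not pass between sets. The log2 differences were 0.36 for Eif4ebp1, the translation repressor, 0.16 for the leucine sensor Sesn2 and -0.41 for Trib3, a pseudokinase of the stress response. That of Eif4ebp1 ran from 0.16 without restriction 32 to 0.52 without restriction 33. The GATOR1 genes had differences of 0.31 (Nprl2, edgeR adjusted p = 0.061), 0.26 (Nprl3, 0.066) and 0.19 (Depdc5, 0.35).

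The 18 calls differed in how far they rested on single libraries. Those of Kars, Farsb, Tars, Aars2, Rars2, Atf4, Chac1, Ddit3, Mthfd2 and Phgdh held in all 12 fits that left out 1 library each. The Tars2 call was lost without control 8 (edgeR adjusted p = 0.051), that of Dars without control 9, restriction 15, control 28 or restriction 32 (up to 0.064), and that of Qars without control 3, restriction 13, control 28, control 29 or restriction 32 (up to 0.069). Iars2 kept its call only without control 3, restriction 12, restriction 13, control 23, restriction 32 or restriction 35 (otherwise up to 0.080), and Farsa only without control 3, restriction 15, control 23, restriction 33 or restriction 35 (up to 0.091). Shmt2 kept it only without control 8, restriction 15, control 23, control 28 or restriction 33 (up to 0.074), Asns only without control 8, restriction 15 or control 28 (up to 0.15), and Hars2 only without control 8 or control 28 (up to 0.11).

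The spread between replicates was also set beside the promoter letters, a comparison chosen after the data were seen. Here the spread is the standard deviation of log2 CPM within groups, pooled over the 4 groups, which the choice of promoters did not use. The 7 cytosolic synthetases with the response element letters had values of 0.22 to 0.42 with a median of 0.29. The 10 without them had 0.08 to 0.30 with a median of 0.13, where Eprs (0.30) and Lars (0.23) were the highest and the other 8 lay at or below 0.20. The 3 without a promoter entry, Dars, Gars and Rars, had 0.09 to 0.16, and the median over all genes tested was 0.36. The order was the same in either set: medians of 0.27 and 0.08 in set 1, and 0.28 and 0.16 in set 2. Leaving out control 23 gave 0.30 and 0.12. Cars had the widest spread with the letters (0.42) and Kars the narrowest without them (0.08). Aars and Yars overlap Ddx19b and S100pbp in the annotation, so some of their reads are uncertain. The lowest count of a gene in any library was 423 with the letters and 554 without. Mean log2 CPM ran from 4.76 (Tars) to 6.92 (Aars) with the letters and from 5.05 (Farsa) to 7.91 (Kars) without. Kars, Vars and Qars, the highest without the letters, had spreads of 0.08, 0.09 and 0.10. Eprs (6.96) had 0.30, and Farsb (5.48) and Wars (5.28) had 0.12 and 0.14. The part of the level in the spread was not tested. These genes share the same libraries, so the values are a description without a test.

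The 7 genes with the letters were also set beside their group means library by library, with no test. All 7 lay above their group mean in control 9, restriction 12, control 29 and restriction 32, and 0 of 7 in restriction 35. In control 3, restriction 13, restriction 15, control 23 and restriction 33, 1 of 7 did. Control 8 and control 28 were mixed, with 4 of 7 and 5 of 7 above and deviations of -0.23 to 0.21 and -0.18 to 0.29. The median deviation of the 7 genes ran from -0.26 (log2) in control 23 to 0.36 in restriction 32, whereas that of the 10 genes without the letters stayed between -0.04 and 0.15, also highest in restriction 32. The 2 ends thus lay in 1 control and 1 restriction library of set 2. Tars, for example, had 51.3, 27.7 and 30.2 CPM in restriction 32, 33 and 35. Cars, for cysteine, had 20.2, 28.8 and 35.6 CPM in controls of set 1, 35.2, 25.7 and 24.7 in set 1 restriction libraries, 22.7, 37.9 and 34.5 in controls of set 2 and 40.5, 26.4 and 19.0 in set 2 restriction libraries. Of the 10 genes without the letters, 6, 6, 3 and 7 lay above their group mean in control 9, restriction 12, control 29 and restriction 32. Eprs (0.23, 0.30, 0.31 and 0.16) and Lars (0.09, 0.27, 0.21 and 0.31) were above in each of these. So was Rars, which has no promoter entry (0.21, 0.04, 0.14 and 0.18). The shared movement was thus not confined to genes with the letters. In the 4 libraries where all 7 genes were high, Atf4 lay 0.21, 0.32, 0.24 and 0.10 above its group mean in control 9, restriction 12, control 29 and restriction 32. Chac1 lay 1.09, 1.07, 0.84 and 0.44 above it in the same libraries, and the leucine sensor Sesn2 0.61, 0.55, 0.24 and 0.37. These genes were picked from the 15 response genes, of which 8, 13, 10 and 10 lay above their group mean in those libraries. Of all 14225 genes tested, 7329, 7339, 7447 and 7052 did, so the count in control 9 was near that of any gene. Others did not follow: Trib3 (0.17 CPM) and Ddit3 (10.03) were lowest of their group in restriction 32. Phgdh was lowest of its group in control 9 (1.06 CPM) and restriction 12 (0.71). In control 3, restriction 15, control 23 and restriction 33, Atf4, Chac1 and Sesn2 all lay below theirs, in control 23 by -0.29, -1.58 and -0.60. This was not so in the other 2 libraries where the synthetases were low: Chac1 (0.33) and Sesn2 (0.23) were above in restriction 13, and Chac1 (0.38) was above in restriction 35.

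**Figure D3:**
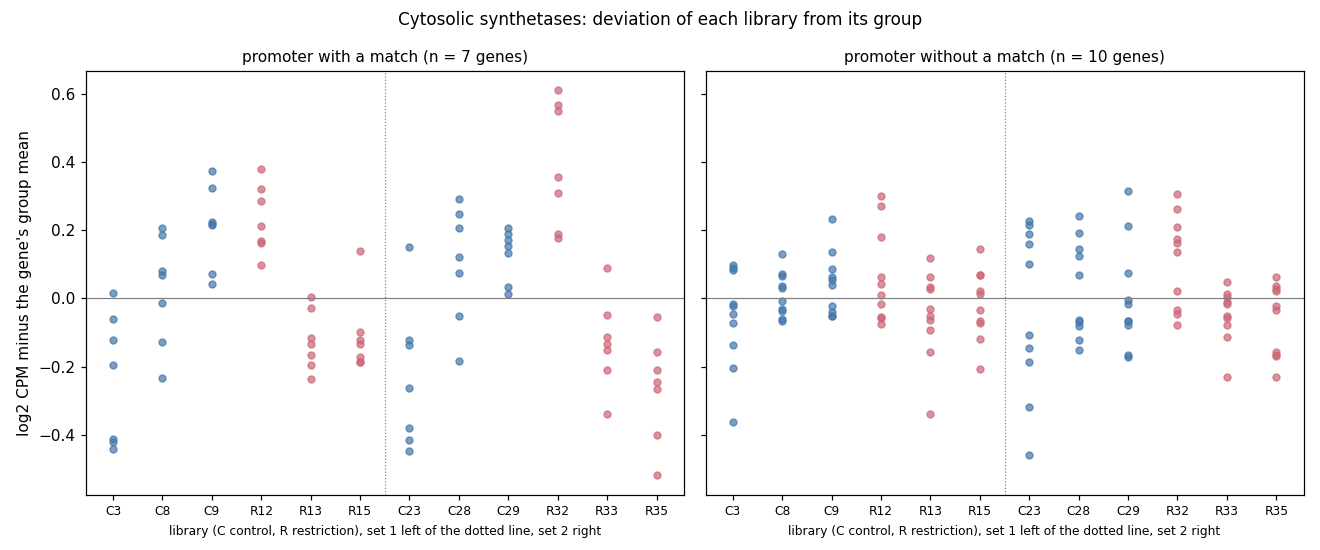
Deviation of log2 CPM from the gene's own group mean in each library, for the 7 cytosolic synthetases with the response element letters (left) and the 10 without them (right), blue for control (C) and red for restriction (R). The left points lie all above 0 in C9, R12, C29 and R32 and all below in R35, and the right points straddle 0 in each library.

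The main question of the study was whether restriction of the dam's protein left a mark on the offspring's muscle. For these genes no change with diet passed the test. By edgeR 0 of 51 members were called in set 1, in set 2, in the mean of both sets or in the difference of the diet effect between sets. The background was 0.00703% of all genes in set 1, 0% in set 2, 0.00703% in the mean and 0% in the difference, so that nearly no gene of the table passed either. At an unadjusted p under 0.05 there were 5 members in set 1, all higher after restriction (7.54% of all genes in either direction and 3.35% higher), 1 in set 2 (8.59%), 3 in the mean (7.83%) and 3 in the difference (9.5%). DESeq2's Wald test called 1 member in set 1, Nprl3 (DESeq2 adjusted p = 0.0387), and 0 in the other 3 comparisons, and limma-voom called 0 in all of them. Groups did not overlap for 6 members higher and 2 lower in set 1, beside 7.97% and 9.6% of all genes, and for 1 higher and 4 lower in set 2, beside 7.01% and 5.72%. Within set 1 the summed fast-fibre genes were also higher after restriction (8527 to 10538 CPM against 3728 to 6802) and the summed adipocyte genes lower (191 to 202 against 242 to 274). The fast-fibre genes did not move as one: 6 had log2 differences above 0 and 2 below, from -3.47 to 1.02, and 0 of the 8 were called. In set 2 the red blood cell gene sum was lower after restriction (297 to 394 against 601 to 1958). The part of these in the differences below was not tested, and with 3 libraries a side a p above the threshold does not show that restriction had no effect.

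**Figure D4:**
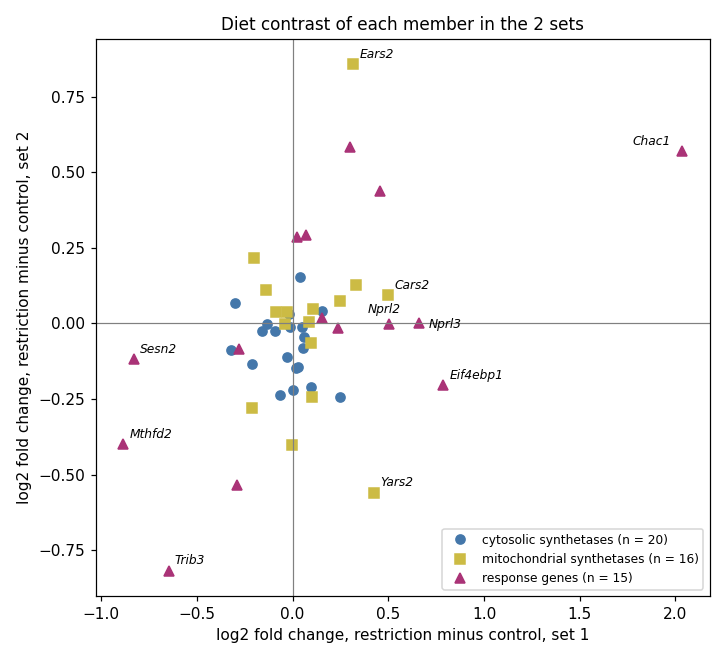
Log2 fold change of restriction minus control in set 1 (horizontal) against set 2 (vertical) for the 51 tested members, by class. Cytosolic synthetases lie close to the origin, Chac1 lies far to the right, and none of the points passed the test on either axis in edgeR.

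Cytosolic synthetases had diet differences of -0.32 to 0.25 in set 1 (log2, median -0.01, 10 above 0 and 10 below) and -0.24 to 0.15 in set 2 (median -0.06, 4 above and 16 below). The set 2 median was 0.04 when libraries were scaled by their totals alone, so the side of 0 on which the class lay depended on the scaling. Qars and Kars had the smallest p-values. Qars, whose values are given above, had a diet difference of 0.25 ± 0.13 in set 1 (edgeR adjusted p = 0.68) and -0.24 ± 0.13 in set 2 (0.61), the latter -0.14 without control 23. In each set the 3 control and 3 restriction libraries did not overlap, in opposite orders, and the test of the difference between sets gave -0.49 ± 0.19 (edgeR adjusted p = 0.48). Kars had a diet difference of -0.24 ± 0.13 in set 2 (edgeR adjusted p = 0.60), with 169, 175 and 176 CPM under restriction all below 227, 192 and 192 in controls. Without control 23 it was -0.15.

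Mitochondrial synthetases had diet medians of 0.09 in set 1 and 0.04 in set 2. Cars2, for cysteine, had 14.7, 13.9 and 13.2 CPM in controls of set 1 and 19.0, 20.2 and 19.9 in set 1 restriction libraries, against 18.0, 10.5 and 10.8 and 10.4, 15.0 and 16.4 in set 2. The set 1 groups lay apart, by 0.50 ± 0.22 (edgeR adjusted p = 0.63), and those of set 2 overlapped at 0.10 ± 0.22. Ears2, for glutamate, had 3.80, 4.39 and 2.94 CPM in controls of set 1, 5.16, 3.92 and 4.76 in set 1 restriction libraries, 2.25, 3.01 and 2.93 in controls of set 2 and 5.40, 4.35 and 5.15 in set 2 restriction libraries. It was higher after restriction by 0.86 ± 0.27 in set 2, where the groups did not overlap (edgeR adjusted p = 0.50), by 0.32 ± 0.27 in set 1, where they did (0.17 without control 9), and by 0.59 ± 0.19 in the mean (0.49). Yars2, for tyrosine, had differences of 0.42 in set 1 and -0.56 in set 2. The former was 0.25 without restriction 15, and the latter -0.21 without control 23.

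Among the response genes, the smallest diet p-value belonged to a GATOR1 gene. Nprl3 had 17.3, 15.5 and 19.2 CPM in controls of set 1 and 27.5, 28.5 and 26.3 in set 1 restriction libraries (means 17.3 ± 1.81 and 27.4 ± 1.06, SD, n = 3), and 29.0, 23.5 and 25.7 and 26.3, 23.9 and 28.0 in set 2. All 3 restriction libraries of set 1 were above its controls and within the range of set 2. The difference was 0.66 ± 0.15 in set 1 (edgeR adjusted p = 0.35, and between 0.089 and 0.88 when 1 library was left out) and 0.00 ± 0.15 in set 2. The difference between the sets was -0.66 ± 0.21 (edgeR adjusted p = 0.42). Nprl2, its partner in the complex, had 21.3, 14.4 and 14.9 CPM in controls of set 1, 24.5, 25.1 and 21.9 in set 1 restriction libraries, 24.7, 23.6 and 26.1 in controls of set 2 and 22.0, 27.7 and 24.6 in set 2 restriction libraries. The pattern of values was like that of Nprl3, with control 3 just below restriction 15: 0.50 ± 0.17 in set 1 (edgeR adjusted p = 0.54) and -0.00 in set 2. Depdc5, the third subunit, had 11.2, 10.4 and 11.2 CPM in controls and 12.0, 8.49 and 12.8 in restriction libraries of set 1, a difference of 0.02 ± 0.22 with overlapping groups. Differences between the 3 subunits were not tested.

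**Figure D5:**
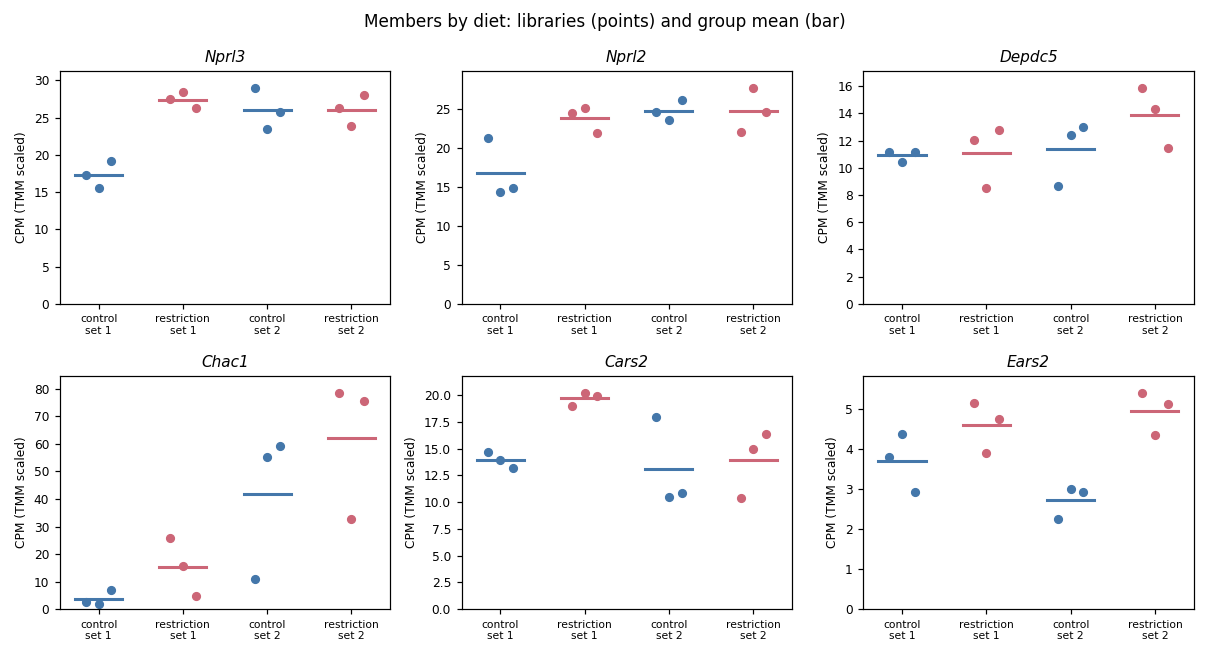
TMM-scaled CPM of 6 members in each library (points) with the group mean (bar) by diet and set, all axes from 0. In set 1 the restriction libraries of Nprl3, Nprl2 and Cars2 lie above the controls, those of Depdc5, Chac1 and Ears2 overlap with them, and no difference passed the test in edgeR.

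Chac1, whose values are given above, differed more than any other member with diet in set 1, by 2.03 ± 0.68 (edgeR adjusted p = 0.53), with restriction 15 among the controls. It was 1.43 without restriction 12 and 2.82 without control 9. In set 2 the difference was 0.57 ± 0.63 and 0.12 without control 23. Eif4ebp1 had 84.8, 119 and 93.3 CPM in controls of set 1 and 219, 133 and 162 in set 1 restriction libraries, which did not overlap (0.79 ± 0.33, edgeR adjusted p = 0.60), and -0.20 ± 0.33 in set 2. Sesn2 (-0.83 ± 0.39, edgeR adjusted p = 0.65) had a set 1 difference below 0, which was -0.49 without control 9. Ddit3 had differences of -0.29 in set 1 and -0.53 in set 2, the latter -0.05 without control 23. Atf4 itself had -0.28 ± 0.19 and -0.09 ± 0.19, and the ATF4 targets Asns, Phgdh and Psat1 had values within 1 standard error of 0 in each set. Mthfd2 (-0.88 ± 0.62 in set 1 and -0.40 ± 0.68 in set 2) and Trib3 (-0.65 ± 0.72 and -0.82 ± 0.73) were below 0 in both, at low counts. The Trib3 groups did not overlap in set 2. Shmt2 had 0.15 ± 0.14 in set 1, with no overlap, and 0.02 ± 0.14 in set 2. Psph had 0.24 ± 0.36 and -0.01 ± 0.36. None of these passed in edgeR.

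Genes around these members, from lists of the same pathways, differed between the sets in places and did not pass for diet in either set. Of 19 helpers of tRNA charging and delivery, 1 was higher in set 2 (Tarsl2, a second threonyl-tRNA synthetase gene, 1.22) and 3 were lower, led by Eef1a1 (-2.16), the non-muscle form of the factor that carries charged tRNA to the ribosome. Amino acid transporters were called 6 higher and 7 lower of 24, with Slc7a2 (3.36) highest and Slc38a1 (-2.98) and Slc7a1 (-2.37) lowest. Of 34 genes of amino acid sensing through mTORC1, 12 were higher, among them Bmt2 (2.68), Deptor (2.24) and Rragd (1.75), and 2 lower, Lamtor1 (-0.34) and Lamtor3 (-0.32). Other genes of the response were called 9 higher and 6 lower of 37, with Gpt2 (5.45), a mitochondrial alanine transaminase, and Ddit4 (2.02), an inhibitor of mTORC1, at the top. At the bottom were the secreted factor Gdf15 (-3.56) and the transcription factors Atf3 (-2.40) and Atf5 (-1.20), which fell while Atf4 rose. The shares called were 21.1%, 54.2%, 41.2% and 40.5% in the order given, beside 39.5% of all genes.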

How the data were processed

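The deposited table held raw counts per gene for 12 libraries. The authors made these counts from TruSeq RNA libraries, per the labels' protocols, with a kit that does not mark strand. The submitters' processing notes name Trimmomatic, HISAT2, featureCounts, DESeq2 and build Rnor_6.0. Their order, versions and settings, and the annotation, were not given in the sources read here. A second deposited table, of the same counts rescaled library by library, was left out. Genes of the 24648 rows were kept by edgeR's filterByExpr over the 4 groups (14225 tested) and scaled by TMM. They were fitted with 1 mean per set and diet by edgeR's quasi-likelihood test (edgeR 4.0.16, R 4.3.3), with Benjamini-Hochberg adjustment over all genes tested and a threshold of 0.05. Standard errors come from the test's F value, and log2 CPM used a prior count of 2. The fit was tested on simulated counts.

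DESeq2 1.42.0, limma-voom (limma 3.58.1), other scalings, other filters, a replicate block and leaving out each library were tried as alternatives. Values in all libraries are given for members called with diet, for up to 4 called members per class and direction between sets, and for the 2 members per class with the smallest diet p. Exceptions are named for their place in a complex or list. The members and lists, including markers of slow and fast fibres, macrophages, progenitors, adipocytes, endothelium, Schwann cells and red blood cells, were chosen with earlier results of these data known. Gene lengths were not used here, so levels are not compared between genes, except as counts beside the replicate spread. Replicates differed by far more than counting noise (chi-square per degree of freedom of 25.2 or more), so none was taken for a repeat deposit. A few items are not reported here.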

Additional observations from a re-analysis of the deposited data

How the results depend on the processing

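Over the alternatives, 12 to 20 members were called between the sets, against 18, and no called member changed direction. Counts were 18 by DESeq2, 19 by limma-voom, 17 with DESeq2's size factors, 17 with library size alone, 13 without a filter on low counts, 17 at a mean CPM of at least 1, and 12 to 19 when 1 library was left out. Leaving out controls 3 and 23 together, an alternative chosen after seeing the data, gave 20. For restriction in set 1, 1 member was called by DESeq2 (Nprl3), where 35 genes of the table passed, against 1 in edgeR. Without control 23, 22 genes passed in set 1, and without controls 3 and 23, 126 did, with 0 members among them. The Depdc5 difference in set 1 was -0.0069 by limma-voom and ran from -0.092 to 0.18 when 1 library was left out, so its sign was not fixed.

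Class medians lay near 0 and moved with the scaling. With library size alone, those of the mitochondrial synthetases and response genes were -0.076 and -0.073 between sets, 0.15 and 0.11 for restriction in set 2, and 0.026 for the mitochondrial class in the difference of the diet effect between sets. The response median between sets was 0.16 at a mean CPM of at least 1 and -0.15 without controls 3 and 23. With 1 library left out, the medians between sets ran from -0.058 to 0.095 (mitochondrial) and -0.17 to 0.18 (response). The mitochondrial median for restriction in set 2 ran from -0.049 to 0.059, and the medians of the difference between sets from -0.14 to 0.014 (mitochondrial) and -0.27 to 0.069 (response). The cause of these moves was not tested.

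The title numbers of set 2 are those of set 1 plus 20. Deviations of such library pairs from their group means correlated at 0.0791 to 0.175, not above 0.1 in each pair. By the rule used, the main fit therefore did not treat them as pairs, which does not show that they come from different animals. Among the 3 set 2 libraries of its own diet, each of the 6 set 1 libraries correlated best with its own number. This is a hint from the data and not from the design. With a replicate block on that number, 16 members were called between sets, 7 higher and 9 lower, 14 of them among the 18, and 0 in the difference of the diet effect. By edgeR with the block, Farsa (adjusted p = 0.053), Iars2 (0.056), Hars2 (0.074) and Asns (0.098) no longer passed, and Mars (0.043) and Eprs (0.026) did.

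Limits: low counts (Phgdh, Asns, Psat1, Trib3, Mthfd2) leave wide errors, 3 libraries a group limit the diet tests, and unstranded reads are uncertain where gene spans overlap.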

Other observations

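For diet, the pathway lists around these genes had no called gene in edgeR in either set. At an unadjusted p under 0.05, the amino acid transporters had 1 higher and 1 lower of 24 in set 1 and 3 higher and 1 lower in set 2. Slc7a2, a transporter of cationic amino acids, had the smallest p of these in set 1 (2.38 ± 0.65 on the log2 scale, edgeR adjusted p = 0.52), and Slc36a1, a lysosomal amino acid transporter, in set 2 (1.502 ± 0.44, 0.46). The mTORC1 sensing list had 2 lower of 34 in set 1, and 5 higher and 1 lower in set 2, where Mtor itself was at 0.57 ± 0.16 (edgeR adjusted p = 0.46). The difference of the Mtor diet effect between sets was 0.87 ± 0.23 (edgeR adjusted p = 0.42). Other response genes had 1 higher and 2 lower of 37 in set 1 and 4 lower in set 2, with Atf3 at -1.85 ± 0.58 (edgeR adjusted p = 0.50). The charging helpers had 2 higher and 1 lower of 19 in set 1 and 1 lower in set 2.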
